A study of Bos taurus with 10 samples.

Results

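Transcripts of the Wnt signaling pathway were examined in udder tissue of dairy cows, 24 h after another gland of the same udder had been inoculated with E. coli. The bovine udder holds separate glands, each with its own teat. Members were all array probe sets annotated with a single gene symbol that named a Wnt ligand (WNT), a Frizzled receptor (FZD), a secreted frizzled-related protein (SFRP), a Dickkopf protein (DKK), a Dishevelled protein (DVL) or 1 of 21 further pathway genes given by symbol. The rule itself refers to symbols and not to values. It found 44 of the 24016 probe sets of the array, which stand for 30 of 9155 genes. For 7 of the 21 single symbols (LRP6, WIF1, TCF7L1, PORCN, NKD1, WISP1 and KREMEN1) no probe set was analysed here.

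Each of 10 cows gave 1 array, 5 per group. All were primiparous German Holstein Frisian cows in mid-lactation whose oestrus had been synchronized with cloprostenol and which were milked out with oxytocin before the trial. In the neighboring group, 500 CFU of the mastitis isolate E. coli 1303 in 2 ml of saline had been given into a single gland, and the tissue came from other glands of that udder, which had received no bacteria. The control group consisted of healthy cows that were not inoculated. Per the methods of the study, RNA of a pair of glands per cow was combined where their somatic cell counts were alike. A pooled neighboring sample held a gland that had received saline and an untreated one, so an effect of the saline and an effect of the infection elsewhere cannot be told apart in these pools. Neighboring 4 came from a single untreated gland, and control 3 and control 5 are also listed as single glands.

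Wnt ligands are secreted proteins that bind Frizzled receptors and the co-receptors LRP5 and LRP6. Binding recruits Dishevelled and stops the complex of APC, AXIN1 and the kinase GSK3B from marking beta-catenin (CTNNB1) for degradation, and beta-catenin then acts with the transcription factors TCF7, LEF1 and their relatives in the nucleus. SFRP proteins bind Wnt ligands outside the cell and DKK1 blocks the co-receptor. In the mammary gland the pathway is known for its part in the growth of ducts and alveoli and in the exchange between epithelium and stroma.

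The comparison asks which of these transcripts differed between glands neighboring an infected one and glands of healthy cows. Values are log2 intensities per probe set after RMA. Following the methods, which name the one as a biological and the other as a technical outlier, neighboring 5 and control 3 were left out of the main comparison, so that 4 arrays stood against 4. The clustering of the study placed neighboring 5 with the controls, so leaving it out was not independent of the group difference. The number of arrays limits the precision. Results are also given with all 10 arrays. A probe set was tested when its mean over the 10 arrays was at least 5.71, which leaves out the dimmest 40%, and it is said to have risen or fallen when limma's adjusted p over all 14410 tested probe sets was under 0.05. Differences are log2 values, neighboring minus control, with limma's standard error (SE). The 10 cows were separate animals, and in whole tissue fewer cells of a type and less RNA per cell cannot be told apart.

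The tissue label was checked by 7 milk protein, keratin and EPCAM markers of mammary epithelium, of which 6 passed the filter. Their summed level was 16.33 to 16.41 in the 4 neighboring samples and 16.37 to 16.40 in the 4 controls. Summed levels add intensities before the log2 step, so the brightest markers of a set dominate them. The summed level of the 8 fibroblast markers was 12.11 to 13.00 and 13.15 to 13.58, and that of the 6 myoepithelial markers 12.59 to 13.06 and 13.01 to 13.64. The array's 18 hybridization control probe sets, which read RNA added in the laboratory and not the tissue, had means of 10.20 to 10.43 on neighboring 1 to 4 and 10.42 to 10.84 on control 1, 2, 4 and 5, so this technical signal moved with the groups. The arrays left out were at 10.65 (neighboring 5) and 10.64 (control 3).

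Among the Wnt pathway members, 3 secreted inhibitors of one family fell and 1 kinase probe set rose. SFRP1, SFRP2 and SFRP4 were 1.59-, 2.14- and 2.27-fold lower in neighboring glands, and the brightest probe set of GSK3B was 1.39-fold higher. Of the 44 member probe sets, 23 for 19 genes were tested and 21 lay under the filter, among them every probe set of 11 genes. The 3 of 23 that fell stand beside 12% of all tested probe sets, and the 1 of 23 that rose beside 17.7%, so the share that fell was close to that over the array. With all 10 arrays the same 3 probe sets fell, beside 5.37% of all tested, and by limma 0 rose (0 also at an unadjusted p under 0.05), beside 7.16%. At the stricter threshold of the methods (more than 2-fold, adjusted p under 0.01) SFRP2 was the 1 member that fell, beside 1.05% of all tested probe sets, and 0 rose (2 at an unadjusted p under 0.05), beside 1.71%. Without a filter, the 44 differences were positive for 16 and negative for 28, with a median of -0.09, and over all 24016 probe sets they were positive for 10557 and negative for 13459, with a median of -0.04. Past the filter, the 23 member differences were positive for 10 and negative for 13, with a median of -0.13, and those of all 14410 tested probe sets were positive for 7603 and negative for 6807, with a median of 0.03.

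**Figure D1:**
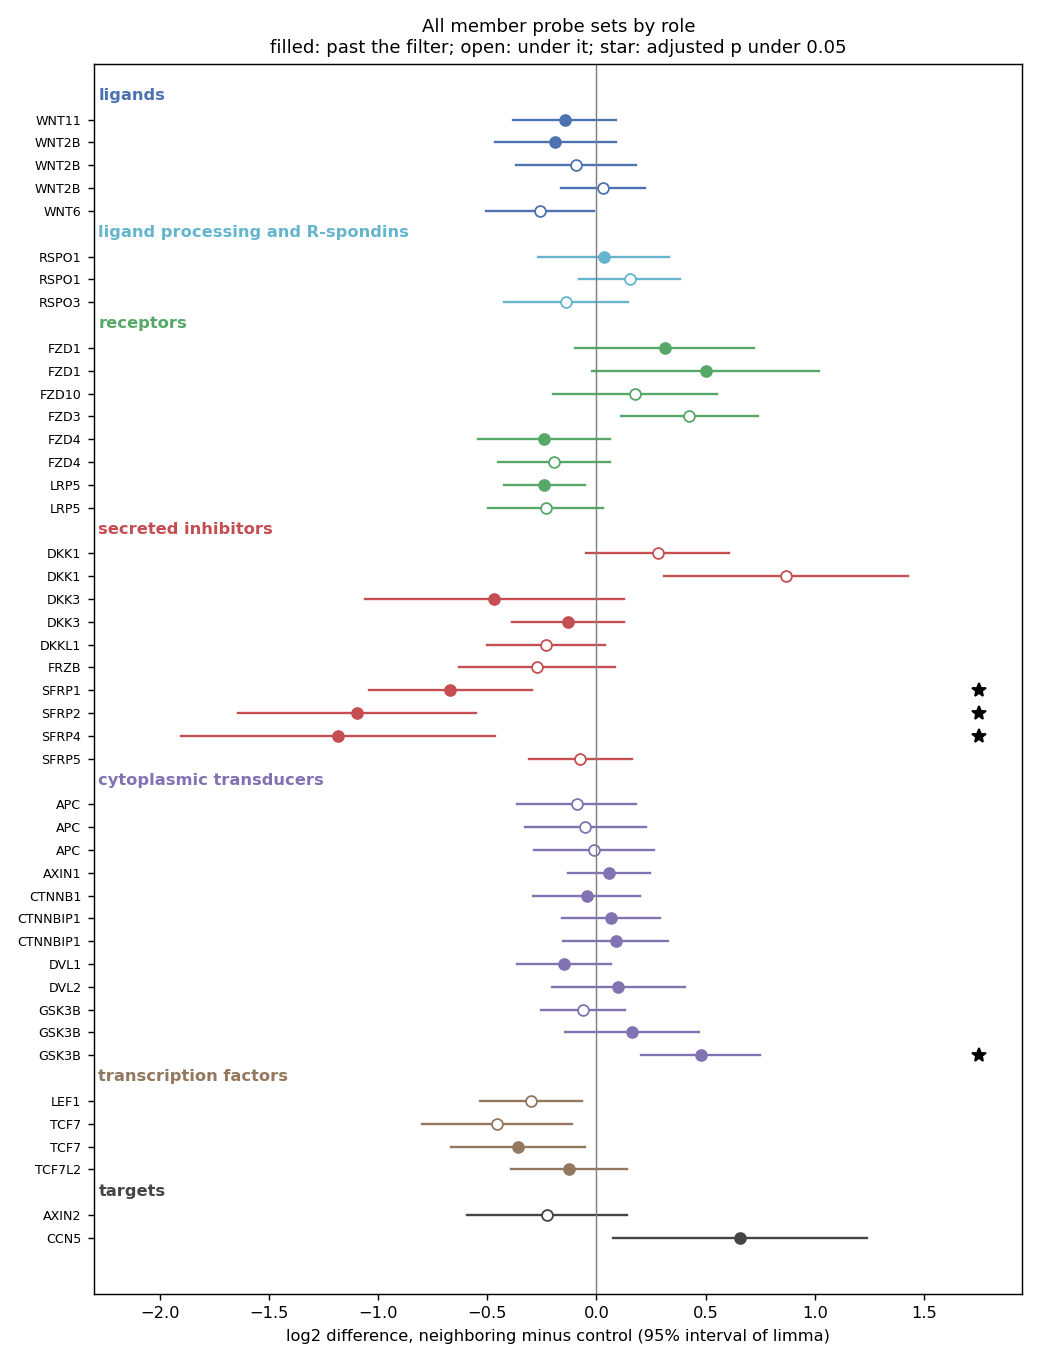
Log2 difference between neighboring and control glands (x axis) for each of the 44 member probe sets, grouped by role, with limma's 95% interval over 4 arrays per group. Filled points passed the filter on dim probe sets, open points did not and are shown from the fit without a filter, and stars at the right edge mark an adjusted p under 0.05. The starred probe sets are those of SFRP1, SFRP2 and SFRP4, left of 0, and the brightest one of GSK3B, right of 0.

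The secreted inhibitors held 8 genes with 10 probe sets, of which 5 were tested, 3 fell and 0 rose (0 also at an unadjusted p under 0.05, limma). Over all tested probe sets 12% fell and 17.7% rose. SFRP2 encodes a frizzled-related protein made by stromal cells. Its value was 7.43, 7.75, 7.90 and 7.16 on neighboring 1 to 4 and 8.82, 8.97, 8.96 and 7.88 on control 1, 2, 4 and 5, with 7.84 on neighboring 5 and 8.36 on control 3. All neighboring arrays lay below all controls except control 5, which was at the level of neighboring 3. The means were 7.56 ± 0.33 and 8.66 ± 0.52 (SD, n = 4), and the difference of -1.10 ± 0.25 (SE) had an adjusted p of 0.00879 in limma. The call was kept without any 1 of the 8 arrays (adjusted p 0.00157 to 0.0271) and with all 10 (0.0263).

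SFRP1, a related inhibitor with the same Wnt-binding domain, was 7.68, 7.99, 7.94 and 7.54 on neighboring 1 to 4 and 8.06, 8.85, 8.54 and 8.37 on control 1, 2, 4 and 5. These 4 neighboring arrays lay below these 4 controls, as was so for 13.3% of all tested probe sets. Neighboring 5 (7.92) was among the neighboring values, and control 3 (7.99) reached into them. The difference was -0.67 ± 0.17 (SE), from 7.79 ± 0.22 against 8.46 ± 0.33 (SD, n = 4), with a limma adjusted p of 0.0148, and of 0.0481 with all 10 arrays.

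SFRP4, another member of the family, was 6.27, 6.66, 5.63 and 4.91 on neighboring 1 to 4 and 7.22, 7.41, 6.88 and 6.70 on control 1, 2, 4 and 5. With neighboring 5 at 6.43 and control 3 at 7.39, all 5 neighboring arrays lay below all 5 controls, which held for 3.48% of tested probe sets (3.8% in the opposite direction). The neighboring arrays were also the more scattered ones, with neighboring 4, the single untreated gland, lowest. Means of 5.87 ± 0.77 and 7.05 ± 0.32 (SD, n = 4) gave a difference of -1.18 ± 0.33 (SE) and a limma adjusted p of 0.0213. The call was lost without control 1 (0.0514), control 2 (0.0533) or neighboring 3 (0.0583), and with neighboring 5 entered and control 3 left out (0.0571), and it held with all 10 arrays (0.0345). Over the fits without 1 array the difference ran from -1.45 (without neighboring 2) to -0.86 (without neighboring 4), so its size depended on single arrays.

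The array left out as a biological outlier, neighboring 5, was thus inside the range of the other neighboring arrays for SFRP1, SFRP2 and SFRP4. With the mean of the hybridization controls as a covariate, by limma 0 of 23 members were called (1 higher and 4 lower at an unadjusted p under 0.05), beside 1.05% higher and 0.687% lower over all tested probe sets. The differences in that fit were -0.99 for SFRP1, -1.63 for SFRP2 and -1.28 for SFRP4, with limma adjusted p of 0.100, 0.0673 and 0.262. Their SEs were 0.28, 0.39 and 0.58, against 0.17, 0.25 and 0.33 in the main fit. The part of this technical signal in the calls was not tested further.

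**Figure D2:**
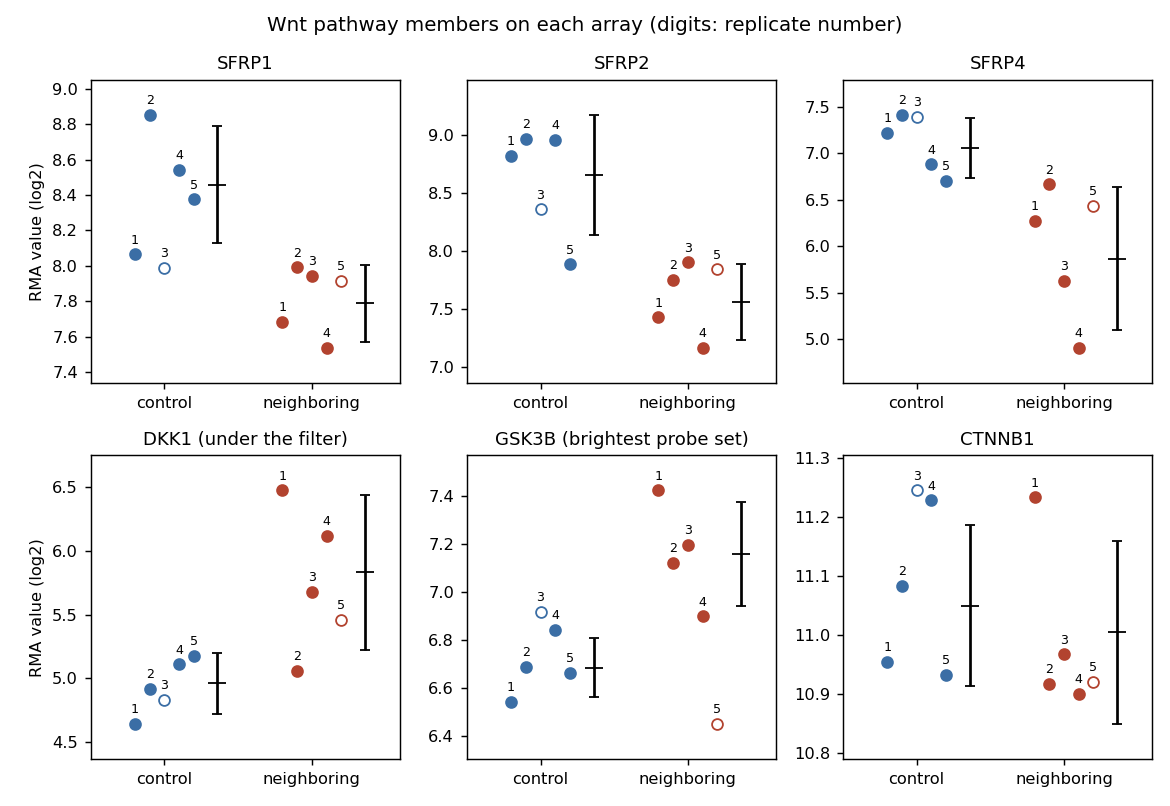
RMA values (log2, y axis, with its own range in each panel) of 6 members on each of the 10 arrays, with the replicate number beside each point. Filled points entered the main comparison and open points (control 3, neighboring 5) did not, and bars give mean ± SD of the 4 filled points per group. SFRP4 separates all 5 neighboring from all 5 control arrays, neighboring 5 has the lowest GSK3B value of all arrays, and the CTNNB1 groups overlap.

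Markers of several cell types differed between the groups as well. Of 8 fibroblast markers, LUM (-1.72), COL3A1 (-0.95) and COL1A1 (-0.70), which encode matrix proteins, fell, and PDGFRA, a growth factor receptor of fibroblasts, rose by 0.50. These 3 and 1 of 8 stand beside 11.5% lower and 20.2% higher over all genes tested by their brightest probe set. With all 10 arrays 4 fell (also COL1A2) and 1 rose, beside 5.02% lower and 8.26% higher over all genes so tested. COL1A2 (-0.75), PDGFRB (-0.20), DCN (-0.09) and THY1 (0.15) did not pass the test. The COL3A1 call was lost without control 1, 2 or 4 or neighboring 3 (adjusted p up to 0.0707), and that of PDGFRA without neighboring 3. Of 6 myoepithelial markers OXTR (-1.24), TAGLN (-0.89) and ACTA2 (-0.72) fell and 0 rose (0 at an unadjusted p under 0.05, limma), beside the same 11.5% and 20.2%. With all 10 arrays OXTR alone of them fell, beside 5.02%. TAGLN was lost without control 1 or 2 (adjusted p up to 0.0645) and ACTA2 without control 1 or 2 or neighboring 1, 3 or 4 (up to 0.0933). The 1 tested neutrophil marker, S100A12, rose by 1.98. The summed level of the 3 measured neutrophil markers was 7.52 to 8.74 in the 4 neighboring samples and 6.90 to 6.99 in the 4 controls. This sum includes S100A12 and so is not separate from its rise, and neutrophil number was not tested. Of 3 tested macrophage markers 1 fell, and of 6 tested epithelial markers 1 rose, beside the same 11.5% and 20.2%. The macrophage call was lost with all 10 arrays. All 3 measured adipocyte markers lay under the filter. Their summed level was 5.53 to 5.92 in the 4 neighboring samples and 5.96 to 6.47 in the 4 controls, and the groups overlapped with all 10 arrays.

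Relative to the mean of control 1, 2, 4 and 5, neighboring 4 had the lowest value of all 10 arrays for SFRP1 (-0.92), SFRP2 (-1.50) and SFRP4 (-2.15), and also for 5 of the 8 fibroblast markers, COL1A1 (-1.14), COL1A2 (-1.73), COL3A1 (-1.96), LUM (-2.09) and DCN (-0.40). It was not lowest for PDGFRA (0.35), PDGFRB (-0.11) and THY1 (0.002). The summed fibroblast level of the 4 neighboring arrays did not reach that of the 4 controls. The part of stromal or other cell numbers in the SFRP differences was not tested.

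**Figure D3:**
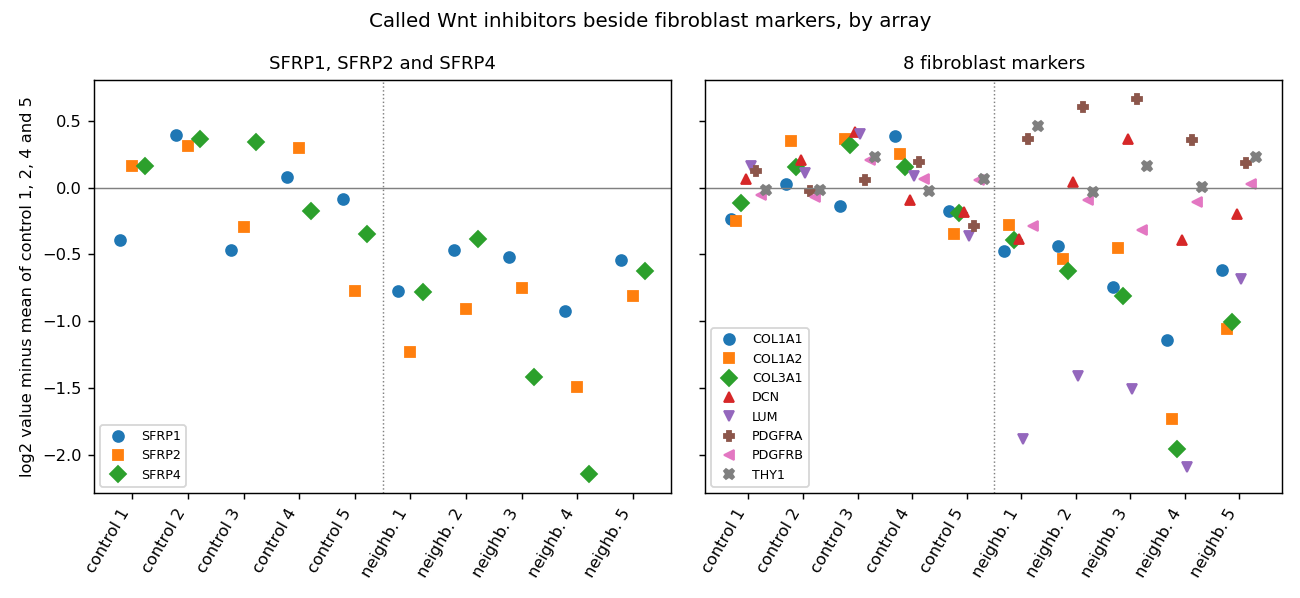
Log2 value minus the mean of control 1, 2, 4 and 5 (y axis) on each of the 10 arrays (x axis), for the 3 SFRP genes that fell (left) and the 8 fibroblast markers (right). Points of one array are set slightly apart. Neighboring 4 is lowest for all 3 SFRP genes and for COL1A1, COL1A2, COL3A1, LUM and DCN, while PDGFRA lies above 0 on all 5 neighboring arrays.

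DKK1, which blocks the co-receptors LRP5 and LRP6, had a positive difference in a probe set under the filter. It was 6.47, 5.06, 5.68 and 6.11 on neighboring 1 to 4 and 5.46 on neighboring 5. The controls were at 4.64, 4.92, 4.83, 5.11 and 5.18 on control 1 to 5. Neighboring 1 and 4 were highest and neighboring 2 lay within the control range. In the fit without a filter the difference was 0.87 ± 0.25 (SE; means 5.83 ± 0.61 and 4.96 ± 0.24, SD, n = 4), with a limma adjusted p of 0.0345, a threshold that 11.1% of all probe sets passed on the higher side. This rests on few arrays: the adjusted p rose to between 0.0521 and 0.0852 when control 1, 2, 4 or 5 or neighboring 1, 3 or 4 was left out, and it was 0.0768 with neighboring 5 entered, 0.611 with the hybridization covariate and 0.0486 with all 10 arrays. The second DKK1 probe set, also under the filter, differed by 0.28 (95% interval -0.05 to 0.61, adjusted p 0.205).

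DKK3, a divergent Dickkopf protein, had a pair of tested probe sets, and neither passed. The dimmer one was 6.38, 6.38, 6.33 and 5.64 on neighboring 1 to 4 and 6.64, 7.17, 6.93 and 5.86 on control 1, 2, 4 and 5. Control 5 stood below its group and neighboring 4 below the other neighboring arrays. The difference was -0.47 (95% interval -1.06 to 0.12, adjusted p 0.206), and without control 5 it was -0.73 with an adjusted p of 0.0309. The brighter probe set differed by -0.13 (-0.39 to 0.12, adjusted p 0.404). FRZB, a further frizzled-related protein, SFRP5 and DKKL1 lay under the filter, with differences of -0.27, -0.08 and -0.23 without it.

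The RefSeq gene table used for symbols holds 19 WNT genes, of which only WNT11, WNT2B and WNT6 had annotated probe sets here. By limma 0 of the 2 tested ligands passed (0 at an unadjusted p under 0.05). WNT11, which acts mostly through the beta-catenin-independent branch, was between 6.30 and 6.57 on the 5 neighboring arrays and between 6.40 and 6.77 on the 5 controls. The groups overlapped, and the difference was -0.15 ± 0.11 (SE, 95% interval -0.38 to 0.09, adjusted p 0.315). WNT2B differed by -0.19 (-0.46 to 0.09, adjusted p 0.272) in its tested probe set and by 0.03 and -0.09 in the others, which lay under the filter. WNT6 lay between 3.59 and 4.21 on all 10 arrays, far under the filter, and without it differed by -0.26 (-0.50 to -0.01, adjusted p 0.124), the widest ligand difference. RSPO1 and RSPO3 encode R-spondins, which keep Frizzled receptors on the cell surface. RSPO1 differed by 0.03 (-0.27 to 0.33, adjusted p 0.869) in its brighter probe set, and RSPO3 was under the filter. No tested ligand transcript passed, and the intervals of WNT11, WNT2B and RSPO1 reach as far as -0.46 on the log2 scale. The other WNT genes were not measured here.

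Among the receptors, 4 of 8 probe sets were tested and by limma 0 passed in either direction (1 lower at an unadjusted p under 0.05). The exception at the unadjusted level was LRP5, the Wnt co-receptor. It was 6.98, 7.01, 7.02 and 6.91 on neighboring 1 to 4 and 7.26, 7.21, 7.16 and 7.25 on control 1, 2, 4 and 5, with 7.07 on neighboring 5 and 7.03 on control 3. The 4 neighboring arrays lay below the 4 controls by a narrow margin, as was so for 13.3% of all tested probe sets. Control 3 closed the gap when all 10 arrays were set side by side. The difference was -0.24 ± 0.084 (SE) with a limma adjusted p of 0.0537, just over the threshold, and the dimmer LRP5 probe set under the filter had a difference of -0.23. With all 10 arrays the limma adjusted p of the tested probe set was 0.132, and with array weights added it was called.

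FZD1, a Frizzled receptor, had positive differences in both of its tested probe sets, and neither passed. The probe set with the larger difference was 7.65, 6.57, 6.85 and 6.67 on neighboring 1 to 4 and 6.13, 6.79, 6.62 and 6.19 on control 1, 2, 4 and 5. Neighboring 1 stood out, neighboring 3 lay slightly above the highest control, and neighboring 2 and 4 lay within the control range. The differences were 0.50 (95% interval -0.02 to 1.02, adjusted p 0.131) and 0.31 (-0.10 to 0.72, adjusted p 0.220). FZD4 differed by -0.24 (-0.54 to 0.06, adjusted p 0.205). Its limma adjusted p was 0.047 without neighboring 1 and 0.250 with all 10 arrays. FZD3 and FZD10 lay under the filter, FZD3 at 1.53 to 2.49 on all arrays. Without a filter FZD3 differed by 0.43 (0.11 to 0.74, adjusted p 0.056), with neighboring 1 to 4 above control 1, 2, 4 and 5 as for 12.7% of all probe sets, and FZD10 differed by 0.18 (-0.20 to 0.55).

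The cytoplasmic transducers had 12 probe sets of 7 genes, of which 8 were tested, 1 rose and 0 fell (0 also at an unadjusted p under 0.05, limma). These counts stand beside 17.7% higher and 12% lower over all tested probe sets. GSK3B, the kinase that phosphorylates beta-catenin, rose in its brightest probe set. The values were 7.42, 7.12, 7.20 and 6.90 on neighboring 1 to 4 and 6.54, 6.69, 6.84 and 6.66 on control 1, 2, 4 and 5, so the 4 neighboring arrays lay above the 4 controls, as was so for 18.4% of tested probe sets. Neighboring 5 was at 6.45, the lowest of all 10 arrays, and control 3 was at 6.92, above neighboring 4. Means of 7.16 ± 0.22 and 6.68 ± 0.12 (SD, n = 4) gave a difference of 0.48 ± 0.12 (SE) and a limma adjusted p of 0.0168, and the call was lost with all 10 arrays (0.29, adjusted p 0.231) and with neighboring 5 entered (0.202). The next GSK3B probe set differed by 0.16 (-0.14 to 0.47, adjusted p 0.389), and the dimmest, at 1.86 to 2.05 on all arrays, by -0.06. The GSK3B rise thus came from 1 of 3 probe sets.

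Beta-catenin itself, CTNNB1, was 11.23, 10.92, 10.97, 10.90 and 10.92 on neighboring 1 to 5 and 10.96, 11.08, 11.25, 11.23 and 10.93 on control 1 to 5. The groups overlapped over most of their range. The difference was -0.05 ± 0.11 (SE, 95% interval -0.29 to 0.20, limma adjusted p 0.777). The scaffold AXIN1 differed by 0.06 (-0.13 to 0.25), the beta-catenin inhibitor CTNNBIP1 by 0.09 and 0.07 in its probe sets, DVL1 by -0.15 (-0.36 to 0.07) and DVL2 by 0.10 (-0.20 to 0.40), and none of these passed. The 3 probe sets of the tumor suppressor APC lay under the filter, with differences between -0.09 and -0.01.

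The transcription factors TCF7, TCF7L2 and LEF1 carry beta-catenin on DNA, and TCF7 and LEF1 are also abundant in T lymphocytes. Neither of the 2 tested probe sets passed (0 higher and 1 lower at an unadjusted p under 0.05, limma). TCF7 was 5.96, 5.88, 6.23 and 6.38 on neighboring 1 to 4 and 6.56, 6.70, 6.34 and 6.30 on control 1, 2, 4 and 5, and 6.52 and 6.36 on neighboring 5 and control 3. Neighboring 1 and 2 were lowest, and neighboring 4 and 5 lay within the control range. The difference was -0.36 (95% interval -0.67 to -0.05, adjusted p 0.0727). The limma adjusted p was 0.042 without neighboring 4 and 0.208 with all 10 arrays. Under the filter, the second TCF7 probe set differed by -0.46 and LEF1 by -0.30, with adjusted p of 0.0603 and 0.0697 in the fit without a filter. TCF7L2 differed by -0.13 (-0.39 to 0.14, adjusted p 0.441).

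T cell markers differed in the same direction as TCF7. CD3E (-0.75), CD2 (-0.52) and CD3D (-0.50), parts of the T cell surface, fell among 5 markers of T and NK cells, beside the 11.5% of all genes that fell, and by limma 0 of 5 fell with all 10 arrays (adjusted p 0.109, 0.102 and 0.159, 2 of 5 at an unadjusted p under 0.05), beside 5.02%. The summed level of the 5 was 8.38 to 8.96 in the 4 neighboring samples and 8.96 to 9.32 in the 4 controls. The CD3D call was lost without control 1, control 4 or neighboring 3 (adjusted p up to 0.0554). CD8A and NKG7 did not pass the test. Neighboring 5, with a TCF7 value within the control range, had CD3E 0.21 above the mean of the 4 controls, while neighboring 1, 2, 3 and 4 were at -1.10, -0.91, -0.68 and -0.29 relative to it. On neighboring 5 CD8A was at 0.52, CD3D at 0.15 and CD2 at 0.11, while NKG7 was at -0.10. Neighboring 4, also within the control range for TCF7, was at -0.44 for CD2, -0.15 for CD3D, -0.02 for CD8A and -0.23 for NKG7. Its CD3E and CD2 values lay below all controls, and its CD3D, CD8A and NKG7 values lay within the control range. The part of lymphocyte number in the TCF7 difference was not tested.

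AXIN2 and CCN5 are genes that Wnt signaling is known to induce. AXIN2, a common readout of beta-catenin activity, lay under the filter with 5.24 to 5.46 on the 5 neighboring arrays and 5.11 to 5.98 on the 5 controls. Its difference without a filter was -0.23 (95% interval -0.59 to 0.14, limma adjusted p 0.353). CCN5, listed on the array as WISP2, is a secreted matrix protein. It was 7.56, 7.96, 8.59 and 8.92 on neighboring 1 to 4, 7.51 on neighboring 5, and between 7.33 and 7.83 on the 5 controls. Neighboring 3 and 4 were high and neighboring 1 and 5 lay within the control range. The difference of 0.66 (0.08 to 1.24) had an adjusted p of 0.0827, which became 0.018 without neighboring 1 and 0.224 with all 10 arrays.

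Beyond these members, 90 further genes of the pathway in 6 lists were measured, and 76 were tested by their brightest probe set. In all 13 rose and 7 fell, beside 20.2% and 11.5% of all 7055 genes so tested. With all 10 arrays 4 rose (CSNK2A2, CSNK1A1, RAC1 and CD44) and 3 fell (CDH11, GPC3 and RNF43), beside 8.26% and 5.02%, and the other 13 calls were lost. The cytoplasmic signaling list, made of kinases, phosphatases and ubiquitin ligases around the degradation complex, had 18 tested genes, of which 6 rose and 0 fell (0 lower at an unadjusted p under 0.05, limma). CSNK2A2, a catalytic subunit of casein kinase 2, was 9.13, 9.02, 9.21 and 8.81 on neighboring 1 to 4 and 7.93, 8.02, 7.50 and 7.66 on control 1, 2, 4 and 5. Its difference of 1.26 ± 0.14 (SE, limma adjusted p 0.000329) was the widest rise among these 76 genes. Neighboring 5 (8.08) lay above all 5 controls too, and such a separation of 5 from 5 arrays held for 3.8% of tested probe sets. CSNK1A1 (0.66), a casein kinase 1 that primes beta-catenin for GSK3B, CSNK2A1 (0.64), CSNK1E (0.51), the GSK3B paralog GSK3A (0.48) and the phosphatase subunit PPP2CA (0.41) rose as well. The median of the 18 was 0.27, beside 0.06 over the 7055 genes. With all 10 arrays the adjusted p was 0.0196 for CSNK2A2 and 0.0383 for CSNK1A1.

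In the other lists both directions occurred. Of 6 tested genes of Wnt secretion and the extracellular side, TSPAN12, a Frizzled co-receptor, rose by 0.54 (adjusted p 0.0129, and 0.212 with all 10 arrays), while GPC3, a proteoglycan that binds Wnt (-0.59), and RNF43, a ubiquitin ligase that removes Frizzled (-0.37), fell. Of 16 nuclear cofactors HBP1 (0.48) and CTBP2 (0.44), both repressors, rose and the corepressor TLE1 (-0.42) fell. Of 14 genes of the planar cell polarity and calcium branches the kinases PRKCA (1.16) and CAMK2D (0.68) and the GTPase RAC1 (0.52) rose and the polarity protein PRICKLE1 (-0.41) fell. Of 7 partners of beta-catenin at cell junctions CDH11, a cadherin of mesenchymal cells, fell by 1.33 and VCL, which ties junctions to actin, by 0.39, and 0 rose (0 at an unadjusted p under 0.05, limma). CDH11 was 6.72 to 7.46 on the 5 neighboring and 7.99 to 8.61 on the 5 control arrays. Such a separation in this direction held for 3.48% of tested probe sets. The limma adjusted p of CDH11 was 0.000875.

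Of 15 tested genes reported as Wnt targets, CD44, a hyaluronan receptor, rose by 0.62 and EFNB1, an ephrin ligand, fell by 0.35. MYC (0.56, adjusted p 0.0541), CCN1 (0.63, 0.0649) and CCND1 (-0.33, 0.201) did not pass, and the median of the 15 differences was 0.04. The calls of RNF43, GPC3, TLE1, HBP1, PRICKLE1, EFNB1 and VCL were lost without a single array, RNF43 without control 2, control 4 or neighboring 3 (adjusted p up to 0.0599), GPC3 without control 1, 2 or 4 or neighboring 1 or 4 (0.0735), TLE1 without control 2 or 5 or neighboring 3 (0.0667) and HBP1 without any array except control 2 and neighboring 2 (0.096). PRICKLE1 lost it without control 1 or 4 or neighboring 4 (0.0632), EFNB1 without control 4 or 5 or neighboring 4 (0.0536) and VCL without control 2 or 4 or neighboring 2 or 4 (0.0874).

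**Figure D4:**
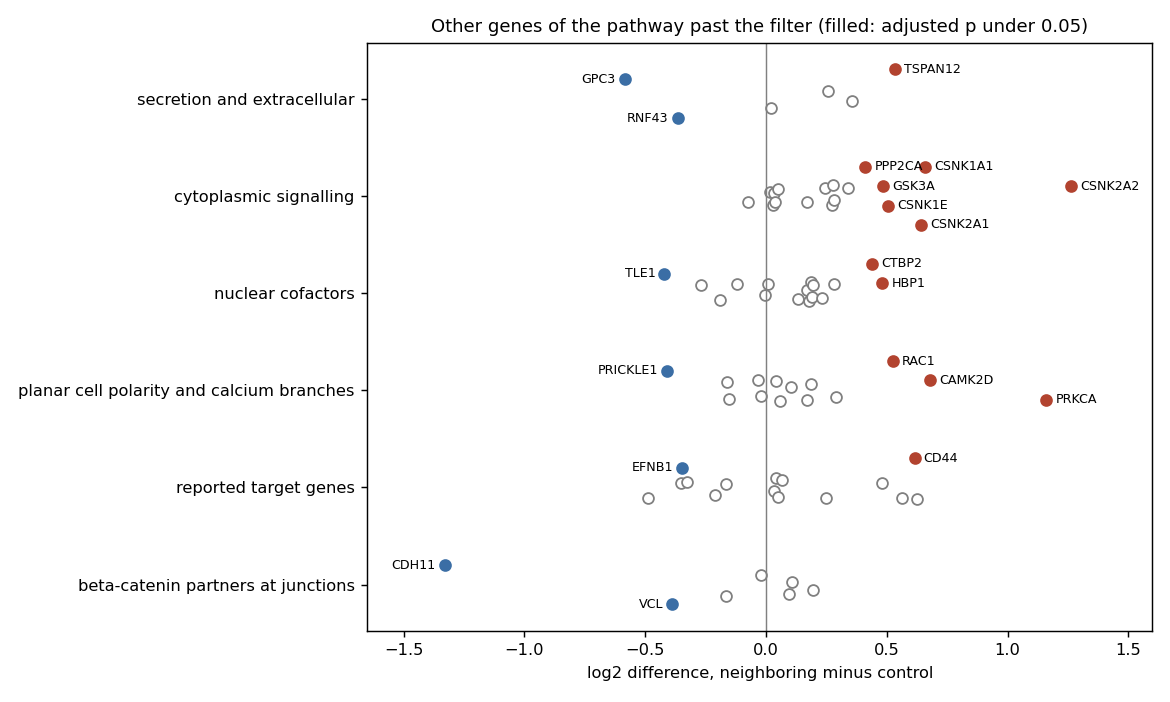
Log2 difference between neighboring and control glands (x axis, 4 arrays per group) for the 76 tested genes of the 6 other pathway lists (y axis, spread within a list for legibility). Filled points have an adjusted p under 0.05, red for higher and blue for lower, and are named. The 6 called genes of the cytoplasmic signaling list all lie to the right of 0, and CDH11 lies farthest to the left.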

How the data were processed

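Udder tissue RNA of 10 cows was measured on Affymetrix bovine genome arrays, 1 per cow. The values deposited by the authors are log2 intensities for each probe set after RMA (background correction, quantile normalization over arrays, summary over probes), a step that would hide a shift common to most transcripts. RMA is named in the submitters' processing notes, with no version. Groups and replicate numbers came from the sample titles. The source field of the control samples repeats that of the neighboring group, while their titles and descriptions name healthy animals. The 112 array controls were left out. Symbols came from the platform annotation updated through a RefSeq gene table. No sequence or coordinate is given.

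limma 3.58.1 in R 4.3.3 (lmFit, eBayes, Benjamini-Hochberg) was fitted over all 14410 probe sets kept after leaving out the 40% with the lowest mean, in place of the study's present calls, on 8 arrays as in the study. The fit was tested on simulated data. Members and lists were chosen with earlier results of these data known. Named were every called member, the brightest member per role that did not pass, the 3 largest differences that did not pass, members whose probe sets disagreed, and up to 4 called genes per other list, except that all 6 of the cytoplasmic list are given. LRP5, TCF7, LEF1, AXIN2 and other members were named to account for all members, and MYC, CCN1 and CCND1 after their values were seen. Alternatives covered arrays entered, filter, scaling (cyclic loess, median centring), variance model, array weights, replicate number as a block, hybridization controls as a covariate, threshold, choice of probe set and each array left out in turn. Combinations of no filter with the other choices for DKK1 were added after seeing the data.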

Additional observations from a re-analysis of the deposited data

Results flagged for a closer look

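Among 15 named member probe sets, each with 5 arrays in 2 groups (30 groups), 2 arrays stood apart from the rest of their group (gap to the nearest array over 0.71 of the range). Chance gives about 1 in 20 such groups. CTNNB1 was 11.23 on neighboring 1, and the nearest neighboring array was at 10.97. DKK3, in its dimmer tested probe set, was 5.64 on neighboring 4, the single untreated gland, and the nearest was at 6.31.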

How the results depend on the processing

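Of 1 member probe set higher in the main comparison (GSK3B, also 1 gene by the brightest probe set), 0 were left with all 10 arrays, with neighboring 5 entered, with the replicate number as a block (numbers 1, 2 and 4, or all 10 arrays), with the hybridization covariate and at the threshold of the study. The count was 2 with no filter or 20% of probe sets left out (with DKK1), and 2 with array weights (with CCN5). Of 3 lower, 1 was left with the block on all 10 arrays (SFRP4, while limma's adjusted p was 0.0601 for SFRP1 and 0.0512 for SFRP2) and at the threshold of the study, and 0 with the hybridization covariate. Leaving out each array gave 1 to 2 higher, 2 without neighboring 1 (with CCN5), and 2 to 4 lower. The lower count was 4 without neighboring 1 (with FZD4), without neighboring 4 (with TCF7) and without control 5 (with DKK3). It was also 4 with array weights (with LRP5) and with cyclic loess.

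For the other pathway genes, 13 higher and 7 lower became 4 and 3 with all 10 arrays, 3 and 1 with neighboring 5 entered, 5 and 2 with the block on numbers 1, 2 and 4, 2 and 1 with the block on all 10 arrays, and 1 and 1 with the hybridization covariate and at the threshold of the study. Leaving out each array gave 12 to 16 higher and 3 to 7 lower, with 3 without control 2, control 4 or neighboring 4. The other 95 counts stayed within 1.5 times the main count. The cause of these shifts was not tested.

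Among single members, the sign turned with the hybridization covariate for the dimmer tested probe sets of GSK3B (-0.12) and FZD1 (-0.085). The brighter FZD1 probe set stayed positive in that fit (0.0036). The sign also turned for CTNNB1 without control 4 (0.014) and for RSPO1 without control 1 (-0.060, with 0.158 the other end of its range over arrays left out). All these were differences that did not pass. Of the other settings for named members, 282 kept direction and side of the threshold, 25 lost it and 3 gained it. The replicate numbers did not pair the samples, since groups were different cows and the deviations of same-numbered arrays correlated at -0.186 to 0.165.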
